A study of Homo sapiens with 24 samples.

Results

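Heat shock chaperones are the proteins that hold, fold and sort other proteins. The 10 genes described here were taken by symbol from the 61860 Ensembl identifiers of the 4 count tables. They are HSF1, HSPA8, HSPH1, DNAJB1, BAG3, HSP90AA1, HSP90AB1, HSPB1, HSPD1 and HSPE1, and each has its own row in every table. RNA came from OE33, a human esophageal adenocarcinoma cell line, in 4 experiments of 3 treated and 3 control libraries each, 24 libraries in all. The first used subcutaneous OE33 xenografts in BALB/c-nu nude mice, grown for 21 days in hosts fed either normal chow (ND) or chow high in fat (HFD). The mice were bought at 4 weeks of age, kept for 1 week and fed for 8 weeks before injection. They lack a thymus, so the tumors grew in a host with few T cells. The other experiments used cultured OE33 cells. HA-TRIM15 cells carried a plasmid for the ubiquitin ligase TRIM15 for 48 h and were set against empty vector (EV). Cells with an shRNA plasmid against the transcription factor YY2 (shYY2) or against the mitochondrial protein FOXRED1 (shFOXRED1) were read at 72 h, each against a shControl group of its own. All groups are derived from 1 cell line, and all cultured groups, controls included, were transfected with plasmid. No source says that the 3 libraries of a group came from separate cultures or mice, so p-values measure the spread between these libraries, which may be technical.

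HSF1 is the transcription factor that switches on chaperone genes when unfolded protein accumulates. HSPA8 is the constitutive cytosolic HSP70, which binds and releases clients as it hydrolyses ATP. DNAJB1 is an HSP40 co-chaperone that delivers clients to HSP70, while HSPH1 and BAG3 act as nucleotide exchange factors that help to release them. HSP90AA1 and HSP90AB1 are the stress-inducible and the constitutive cytosolic HSP90, which mature kinases and receptors. HSPB1 is a small heat shock protein that holds unfolded protein without ATP. HSPD1 and HSPE1 form the chaperonin cage and its lid in the mitochondrial matrix. Tumor cells commonly keep this system at a high level.

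Heat shock factors recognise inverted repeats of a short unit, so the members' promoter windows were searched for the pairs GAANNTTC and TTCNNGAA. Each window spans 250 bases before and 50 bases after an annotated RefSeq start in GRCh38.p14. Windows were found for 9 members, 15 windows in all, since some genes have several starts. A pair occurred in 13.5% of the 35116 promoter windows of the table and in at least 1 window of 6 of the 9 members. A run of 3 alternating units, which contains both pairs with an overlap, occurred in 0.49% of all windows and in those of 4 members, HSPA8, HSP90AA1, HSP90AB1 and HSPD1. The stretches of 30 bases around these runs are shown because these 4 genes were all called higher in HFD and lower in both knockdowns, by different amounts. HSPH1 had the same calls, and its window holds no such pair. Any link between these letters and the changes was not tested. Capitals mark the matched units and each strand is that of the gene.
HSPA8, chr11:123062346-123062375, minus strand: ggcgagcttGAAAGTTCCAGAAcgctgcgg
HSPA8, chr11:123062171-123062200, minus strand: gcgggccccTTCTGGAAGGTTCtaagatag
HSP90AA1, chr14:102087112-102087141, minus strand: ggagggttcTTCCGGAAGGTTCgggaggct
HSP90AB1, chr6:44247769-44247798, plus strand: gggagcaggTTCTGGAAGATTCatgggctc
HSP90AB1, chr6:44247822-44247851, plus strand: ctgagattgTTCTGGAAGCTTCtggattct
HSPD1, chr2:197500061-197500090, minus strand: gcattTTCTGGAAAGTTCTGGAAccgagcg

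The HSPD1 stretch holds 4 alternating units from base -245 to base -228 of its start. The units of HSPA8 lie at -230 to -218 and at -55 to -43, those of HSP90AA1 at -88 to -76, and those of HSP90AB1 at -165 to -153 and at -112 to -100. Each position is relative to the start of the window that holds the run. The windows of the other starts of HSP90AA1, HSP90AB1 and HSPD1 hold no pair. In GENCODE 29 the HSPA8 and HSP90AA1 stretches overlap exons of longer transcripts of the same gene, outside the coding part. The HSPD1 stretch overlaps noncoding exon sequence of both HSPD1 and HSPE1, and the HSP90AB1 stretches are intronic. Single pairs were found for DNAJB1 and HSPB1, and they are shown because DNAJB1 fell least of the lower genes in shYY2 while HSPB1 rose there.
DNAJB1, chr19:14518456-14518485, minus strand: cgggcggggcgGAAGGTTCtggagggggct
DNAJB1, chr19:14518426-14518455, minus strand: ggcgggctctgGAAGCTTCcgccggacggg
HSPB1, chr7:76302480-76302509, plus strand: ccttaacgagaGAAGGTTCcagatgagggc

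The DNAJB1 pairs lie at -77 to -70 and at -47 to -40, inside an intron of a longer transcript, and a further DNAJB1 pair follows another start. The HSPB1 pair lies at -182 to -175, upstream of the annotated gene. The windows of HSPH1, BAG3 and HSPE1 hold no such letters. The YY core AANATGGC, searched on both strands, occurred in 6.58% of all windows. Among the members it was found once, in the window of the upstream HSP90AA1 start, where it overlaps the coding exon of the neighbouring gene WDR20.

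The libraries held between 14299807 and 45994561 counts. The targeted genes moved as the labels say. TRIM15 had 0 counts in the 3 EV libraries and 8.43 ± 3.02 CPM (counts scaled to library size; SD, n = 3) with HA-TRIM15. YY2 was at 0.661 ± 0.0628 CPM in shYY2 and at 2.35 ± 0.0241 CPM in shControl, and FOXRED1 was at 10.1 ± 1.19 CPM in shFOXRED1 and at 17.4 ± 0.286 CPM in shControl. FOXRED1 also fell in shYY2, to 17.7 ± 1.5 CPM from 32.8 ± 0.749 CPM in shControl. With HA-TRIM15 it was at 31.4 ± 1.82 CPM against 36.9 ± 0.4 CPM in EV. TRIM15 was at 0.633 ± 0.0209 CPM in HFD and at 0.0125 ± 0.0216 CPM in ND. Some of these levels rest on few counts. TRIM15 had 14, 12 and 24 counts in HFD and 1, 0 and 0 in ND. YY2 had 11, 12 and 11 counts in shYY2 and 43, 40 and 46 in its shControl. The 5 epithelial markers EPCAM, CDH1, KRT8, KRT18 and KRT19 summed to between 9103 and 13507 CPM in every group, so the labelled epithelial origin was met. Summed CPM values of cell type markers, here and below, are on total counts without TMM. All other CPM values are on TMM-scaled library sizes within each table, so levels set across tables were normalized separately. Levels per kilobase are on 1 TMM scaling of all 24 libraries.

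Together the 10 genes took a different share of the counts in each experiment. It was 0.644% in all 3 HFD libraries and between 0.57% and 0.602% in ND. With HSPD1 left out, a choice made after its values were seen, it was between 0.558% and 0.559% in HFD and between 0.53% and 0.558% in ND, so the gap lay mostly in HSPD1. HA-TRIM15 libraries gave between 0.886% and 0.91%, against 0.965% to 0.986% in EV. shYY2 libraries gave between 0.506% and 0.516%, against 0.883% to 0.905% in their shControl. In shFOXRED1 the share was between 0.505% and 0.523%, against 0.563% to 0.581%. The ranges of treated and control libraries did not overlap in any of the 4 experiments.

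Under HFD, 7 of the 10 genes were higher than in ND and 1, HSF1, was lower, where 25.6% and 23.9% of the 17012 genes tested were called in these directions. HSPD1 rose 2.13-fold, and the other 6 rose by 1.07-fold to 1.14-fold. HSPB1 and HSPE1 were not called. The median log2 fold change was 0.14 over the members and -0.01 over all genes tested. These small differences rest on the scaling of the libraries. With total counts in place of TMM the median of all genes moved to -0.12, and 2 members were higher (HSPA8 and HSPD1) and 2 lower (HSF1 and HSPB1). The 5 human fibroblast markers summed to between 22.7 and 25.8 CPM in HFD and to between 31.5 and 34.7 CPM in ND, with LUM at 0 in HFD and DCN at 0 in ND. The adipocyte markers summed to at most 0.53 CPM in both groups, with ADIPOQ and LEP at 0, the leukocyte markers to between 4.51 and 5.56 CPM, and the endothelial markers to at most 0.506 CPM. Of the 5 fibroblast markers, 4 in HFD and 3 in ND were at or under 3 counts. In the cultured groups, which have no host, these markers summed to between 10.4 and 44 CPM. Host cells are murine, so counts of these human genes do not measure their number. The part of the markers in the result was not tested, and in bulk tissue fewer cells of a type and less RNA per cell cannot be told apart.

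With HA-TRIM15, no member rose and 4 fell, namely HSPA8, DNAJB1, BAG3 and HSPE1, where 12.5% of the 15745 genes tested were called higher and 9.53% lower. At an unadjusted p under 0.05 none was higher and 7 were lower, and DESeq2 called none higher. The changes were small, with HSPE1 1.2-fold lower at most. The median log2 fold change was -0.10 over the members and -0.01 over all genes tested. With total counts in place of TMM 7 members were lower.

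After YY2 knockdown all 10 members were called, 8 lower and 2 higher, where 38.1% of the 16006 genes tested were called lower and 36.8% higher. HSPH1 fell 3.59-fold, HSP90AA1 2.81-fold, BAG3 2.37-fold, HSPA8 2.3-fold, HSPD1 1.8-fold and HSPE1 1.76-fold. HSP90AB1 and DNAJB1 fell by less, and HSPB1 and HSF1 rose. The median log2 fold change was -0.83 over the members and -0.01 over all genes tested. Fibroblast markers summed to between 42.1 and 44 CPM in shYY2 and to between 10.4 and 11.1 CPM in shControl, with 4 of the 5 at or under 3 counts. Their part in the result was not tested.

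After FOXRED1 knockdown, 5 members were lower (HSPA8, HSPH1, HSP90AA1, HSP90AB1 and HSPD1) and 1, HSPB1, was higher. Of the 15730 genes tested 19.7% were called lower and 16.8% higher. HSPB1 rose 1.55-fold and HSPA8 fell 1.42-fold. The median log2 fold change was -0.09 over the members and 0.01 over all genes tested. With the replicate number as a block, HSF1 was called higher too (log2 fold change 0.13, adjusted p = 0.00858), which made 2 higher and 5 lower. With total counts 2 were higher and 4 lower. Fibroblast markers summed to between 39.3 and 42.4 CPM in shFOXRED1 and to between 23.5 and 24.8 CPM in shControl, with 4 of the 5 at or under 3 counts in each group. Their part in the result was not tested.

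**Figure D1:**
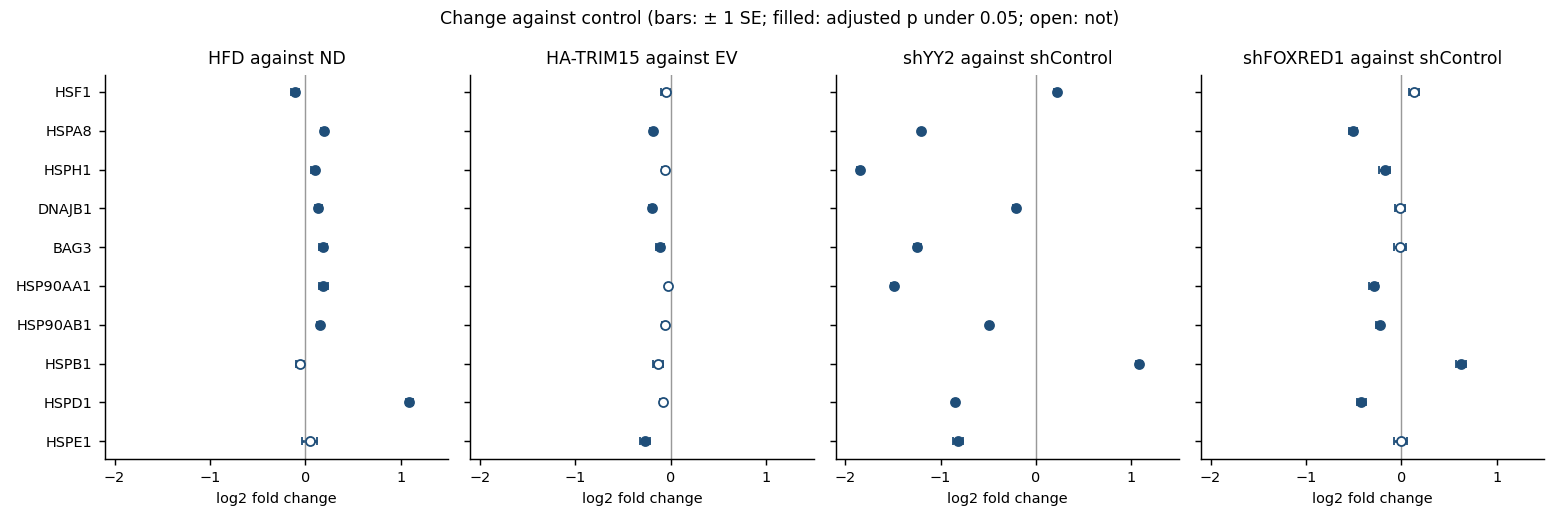
Log2 fold change of the 10 genes (rows) against their own control in the 4 experiments (panels), with bars of 1 standard error, where filled points have an adjusted p under 0.05 and open points do not. The shYY2 panel spreads from -1.84 (HSPH1) to 1.08 (HSPB1), and the HFD panel holds 1 gene, HSPD1, beyond a log2 fold change of 1.

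HSF1, the regulator of the group, was among the less abundant members, at between 22.3 and 37.2 CPM per kilobase of exon, and moved little. Its CPM was 158, 152 and 150 in HFD and 158, 174 and 163 in ND, where the highest HFD library lay just below the lowest ND library. The log2 fold change was -0.11 ± 0.04 (SE; adjusted p = 0.0373). This call was lost when HFD replicate 2 or 3 or ND replicate 2 or 3 was left out, with adjusted p between 0.0512 and 0.163, and with no filter on low counts or with DESeq2. HSF1 rose in shYY2, from 129, 130 and 126 CPM in shControl to 151, 151 and 146 CPM, a gap with no overlap (log2 fold change 0.22 ± 0.03, adjusted p = 6.48e-06). HA-TRIM15 libraries were at 128, 109 and 108 CPM around the EV values of 119 to 120 CPM, so the groups overlapped. Without HA-TRIM15 replicate 1, the high one, the log2 fold change was -0.14 and passed the test (adjusted p = 0.00156). In shFOXRED1 the levels were 206, 202 and 191 CPM against 188, 182 and 179 CPM, with no overlap (log2 fold change 0.13 ± 0.05, adjusted p = 0.0687). Without shFOXRED1 replicate 3 the log2 fold change was 0.16 and passed (adjusted p = 0.00468). The exons of HSF1 overlap those of DGAT1 on the other strand, and the strand setting of the counting is not given in the sources used here.

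HSPA8, the abundant constitutive HSP70, changed in all 4 experiments. In ND it was at 1025, 969 and 993 CPM and in HFD at 1151, 1143 and 1125 CPM, so every HFD library was above every ND library (log2 fold change 0.19 ± 0.03, adjusted p = 0.000114). HA-TRIM15 libraries held 1833, 1822 and 1887 CPM, all below the EV values of 2143, 2101 and 2079 CPM (log2 fold change -0.19 ± 0.03, adjusted p = 0.000129). The fall was larger in shYY2, from 1898, 1868 and 1903 CPM to 824, 820 and 818 CPM. The 3 shYY2 libraries lay close together and far under the controls (log2 fold change -1.20 ± 0.02, adjusted p = 1.03e-15). shFOXRED1 gave 782, 791 and 828 CPM against 1111, 1146 and 1158 CPM in its control (log2 fold change -0.51 ± 0.04, adjusted p = 7.91e-08). No control library of either knockdown came down to the treated range.

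HSPH1, the HSP110 exchange factor, had the widest fall of the 10. In shControl it was at 406, 405 and 427 CPM and in shYY2 at 114, 113 and 118 CPM, with no overlap (log2 fold change -1.84 ± 0.03, adjusted p = 3.56e-16). In shFOXRED1 the levels were 197, 212 and 225 CPM against 231, 236 and 249 CPM. That difference passed the test (log2 fold change -0.18 ± 0.06, adjusted p = 0.0235), but the adjusted p was between 0.0634 and 0.14 without shFOXRED1 replicate 1 or 2 or shControl replicate 2 or 3. HFD libraries were at 261, 273 and 269 CPM and ND libraries at 249, 241 and 261 CPM, so the groups were barely apart (log2 fold change 0.10 ± 0.04, adjusted p = 0.0375). That call was lost without HFD replicate 2 or 3 or ND replicate 1 or 2 (adjusted p between 0.0854 and 0.107), and with total counts the sign turned (-0.01). With HA-TRIM15 the levels of 414, 448 and 429 CPM overlapped the EV values of 442 to 451 CPM (adjusted p = 0.239).

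The co-chaperones DNAJB1 and BAG3 moved by different amounts. DNAJB1 in shYY2 was at 245, 249 and 246 CPM against 282, 291 and 284 CPM (log2 fold change -0.21 ± 0.03, adjusted p = 3.78e-06), the smallest fall among the 8 lower members. HA-TRIM15 lowered it about as far, from 348, 342 and 349 CPM to 303, 306 and 298 CPM (log2 fold change -0.20 ± 0.03, adjusted p = 0.000292), and the libraries did not overlap in either experiment. In HFD it was at 309, 302 and 291 CPM against 271, 275 and 273 CPM, all higher (log2 fold change 0.14 ± 0.03, adjusted p = 0.00362). In shFOXRED1 it overlapped the control range, at 305 to 321 CPM against 311 to 320 CPM (log2 fold change -0.01, 0.04 with total counts; adjusted p = 0.851). DNAJB1 exons overlap those of TECR on the other strand, and TECR rose in shYY2 (log2 fold change 0.24).

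BAG3, which links HSP70 to autophagy, was at 63.8, 60.7 and 62.9 CPM in shYY2. Its shControl libraries held 152, 150 and 143 CPM, all far above (log2 fold change -1.24 ± 0.04, adjusted p = 5.91e-14). HFD libraries were higher, at 113, 120 and 115 CPM against 100, 107 and 99.3 CPM (log2 fold change 0.18 ± 0.04, adjusted p = 0.00123). In HA-TRIM15 it was at 145, 136 and 144 CPM against 158, 153 and 149 CPM (log2 fold change -0.11 ± 0.04, adjusted p = 0.0444). This last call was lost without HA-TRIM15 replicate 2 or any 1 of the EV replicates (adjusted p between 0.0576 and 0.205), and the adjusted p was 0.0535 with DESeq2. shFOXRED1 left BAG3 at 83.4 to 87.5 CPM against 83.9 to 91.1 CPM (log2 fold change -0.01, 0.05 with total counts; adjusted p = 0.91).

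**Figure D2:**
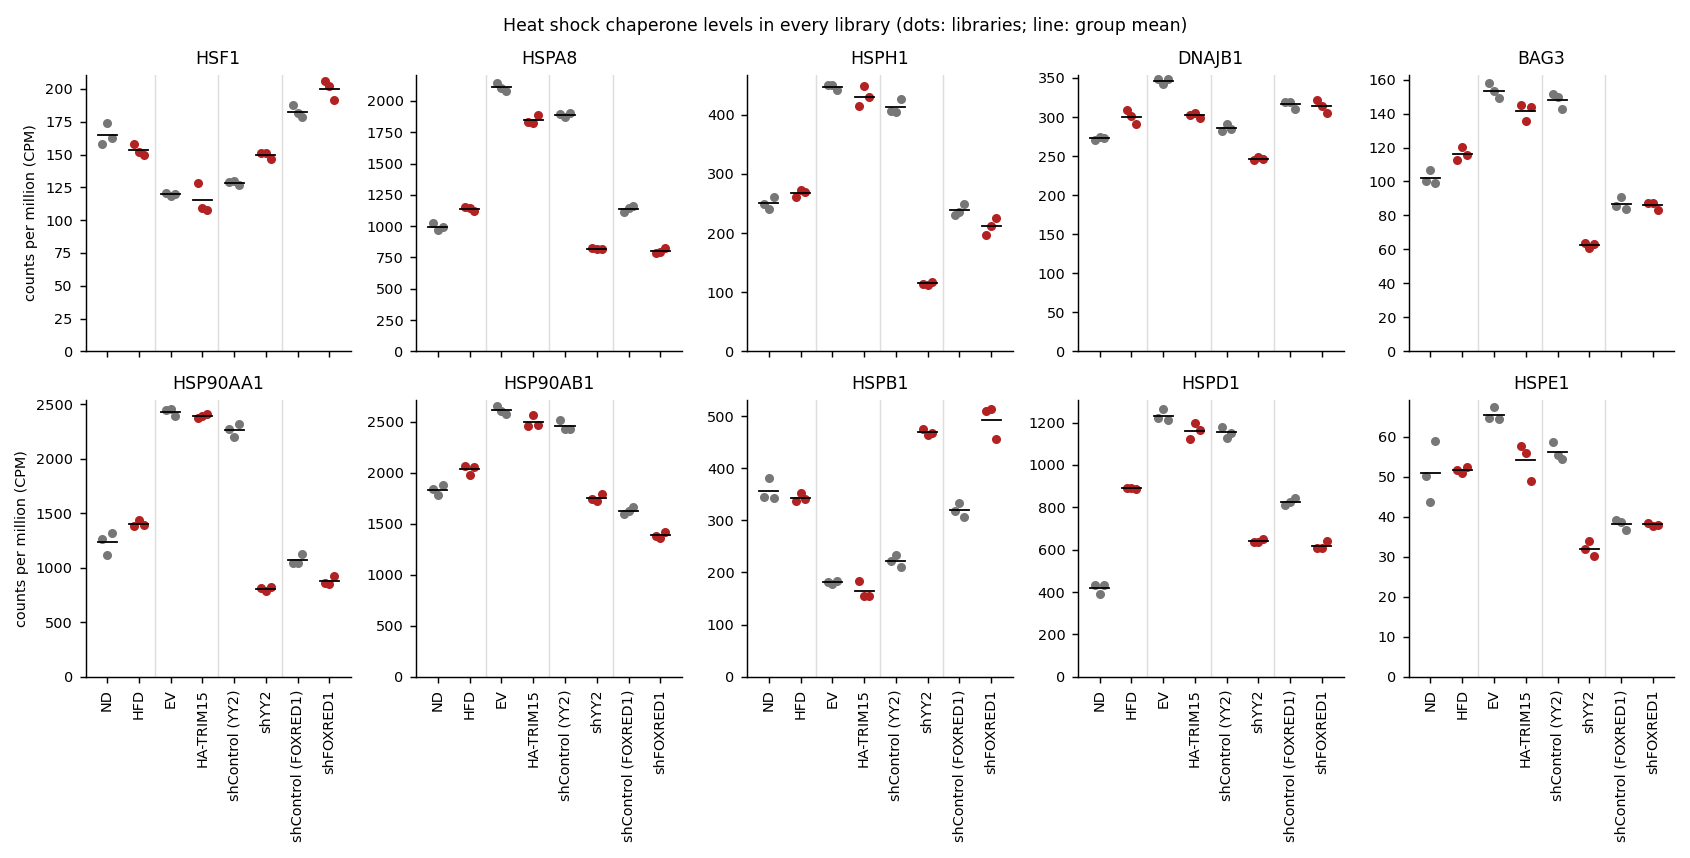
CPM of each gene (panels, linear axes from 0) in the 24 libraries, with control groups in grey, treated groups in red and the group mean as a line. The shYY2 libraries of HSPA8, HSPH1, BAG3 and HSP90AA1 sit far below their shControl, while HSPB1 rises in both knockdowns.

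HSP90AA1, the stress-inducible HSP90, had one of the largest falls in counts. It went from 2269, 2196 and 2318 CPM in shControl to 813, 782 and 820 CPM in shYY2, with each treated library far below each control (log2 fold change -1.49 ± 0.03, adjusted p = 7.05e-16). HSP90AB1, its constitutive partner, fell less, from 2522, 2428 and 2428 CPM to 1741, 1721 and 1789 CPM (log2 fold change -0.49 ± 0.03, adjusted p = 5.72e-11). In shFOXRED1 both were lower. HSP90AA1 was at 859, 852 and 924 CPM against 1043, 1046 and 1130 CPM (log2 fold change -0.29 ± 0.05, adjusted p = 0.000132), and HSP90AB1 at 1383, 1363 and 1424 CPM against 1592, 1627 and 1664 CPM (log2 fold change -0.23 ± 0.04, adjusted p = 0.000238). Neither pair of groups overlapped. In HFD both were higher, HSP90AA1 at 1378, 1434 and 1395 CPM against 1266, 1120 and 1315 CPM (log2 fold change 0.19 ± 0.05, adjusted p = 0.00349) and HSP90AB1 at 2065, 1983 and 2057 CPM against 1837, 1787 and 1882 CPM (log2 fold change 0.15 ± 0.03, adjusted p = 0.00114). With total counts these HFD differences were 0.08 and 0.04 and did not pass. Neither gene passed with HA-TRIM15 (adjusted p = 0.527 and 0.0909). HSP90AA1 exons overlap those of WDR20 on the other strand, whose own change in shYY2 was 0.09 on the log2 scale (adjusted p = 0.114).

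The ratio of HSP90AA1 to HSP90AB1 counts within a library does not depend on library scaling. It was 0.467, 0.454 and 0.459 in shYY2 and 0.9, 0.905 and 0.955 in shControl. Every shYY2 value was far below every control value. The mean log2 ratio differed by -0.999, with p = 0.1 by the exact two-sided permutation test, the smallest p that 3 against 3 can give, and 0.2 after adjustment over 8 ratio tests. In the other 3 experiments the groups overlapped and the difference was between -0.06 and 0.04. Per kilobase of exon, HSP90AB1 was the most abundant member in all 8 groups, at between 460 and 903 CPM per kb. HSP90AA1 was next in 5 of them, though not beyond the spread over HSPB1 in ND. In shYY2 it ranked 4, at 156 CPM per kb, beside HSPD1 at 153 CPM per kb, whose range it overlapped.

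HSPB1, the small heat shock protein, rose in both knockdowns, and in shYY2 HSF1 rose too. In shYY2 it was at 476, 463 and 468 CPM against 222, 234 and 211 CPM, 2.11-fold higher and without overlap (log2 fold change 1.08 ± 0.03, adjusted p = 1.83e-13). In shFOXRED1 it was at 510, 513 and 456 CPM against 318, 333 and 306 CPM, again without overlap (log2 fold change 0.63 ± 0.06, adjusted p = 1.27e-07). It was not called in HFD (338, 352 and 341 CPM against 344, 381 and 344 CPM) or with HA-TRIM15 (184, 155 and 155 CPM against 183, 177 and 184 CPM). Those groups overlapped, with adjusted p = 0.301 and 0.0874. Without HA-TRIM15 replicate 1 the log2 fold change was -0.22 and passed the test (adjusted p = 1.07e-05), and in HFD with total counts it was -0.16 and passed (adjusted p = 0.00344). HSPB1 ranked 2 in level per kilobase in both knockdowns, at 291 and 298 CPM per kb, and between 3 and 5 in the other 6 groups.

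The mitochondrial chaperonin genes HSPD1 and HSPE1 lie head to head on chromosome 2, and 204 bases are shared by a promoter window of each. Their annotated exons overlap on opposite strands, and the strand setting of the counting is not given in the sources used here. Reads could thus be shared or lost between the 2 rows, which limits the HSPE1 values and the ratio below. HSPD1 was at 890, 891 and 887 CPM in HFD and at 432, 392 and 431 CPM in ND. The 3 HFD libraries were nearly alike and all far above ND (log2 fold change 1.09 ± 0.04, adjusted p = 2.35e-12). HSPE1 had 51.6, 51 and 52.4 CPM in HFD and 50.1, 43.6 and 58.8 CPM in ND, where the HFD values fell inside the ND range (log2 fold change 0.04 ± 0.08, adjusted p = 0.655). Its log2 fold change was -0.06 without ND replicate 2, 0.16 without ND replicate 3 (adjusted p = 0.0286) and -0.07 with total counts. The HSPE1 to HSPD1 ratio was 0.058, 0.0573 and 0.0591 in HFD and 0.116, 0.111 and 0.136 in ND. ND was the group that stood apart, since the ratio lay between 0.042 and 0.0635 in every library outside ND. The log2 difference was -1.05 (exact permutation p = 0.1, adjusted 0.2).

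shYY2 lowered both chaperonin genes, HSPD1 from 1182, 1126 and 1153 CPM to 637, 637 and 652 CPM (log2 fold change -0.85 ± 0.03, adjusted p = 1.65e-13) and HSPE1 from 58.7, 55.5 and 54.5 CPM to 32, 33.8 and 30.1 CPM (log2 fold change -0.82 ± 0.05, adjusted p = 6.36e-10). Their ratio there differed by 0.03 on the log2 scale, with overlapping groups. shFOXRED1 lowered HSPD1, to 606, 606 and 641 CPM from 810, 824 and 843 CPM (log2 fold change -0.42 ± 0.04, adjusted p = 1.13e-06). HSPE1 stayed at 37.7 to 38.5 CPM against 36.8 to 39.3 CPM (log2 fold change -0.01, 0.05 with total counts; adjusted p = 0.945), so the ratio was higher by 0.41 (exact permutation p = 0.1, adjusted 0.2). HA-TRIM15 lowered HSPE1, to 57.6, 55.9 and 49 CPM from 64.7, 67.4 and 64.4 CPM (log2 fold change -0.27 ± 0.05, adjusted p = 0.0024), and the ratio was different by -0.19 on the log2 scale (exact permutation p = 0.1, adjusted 0.2). For HSPD1 in HA-TRIM15 the adjusted p was 0.0602, at 1122, 1198 and 1167 CPM against 1223, 1264 and 1210 CPM, which do not overlap. It was under 0.05 with DESeq2 (0.0466), with no filter (0.0351), with total counts (0.0169) and with the replicate block (0.0423).

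**Figure D3:**
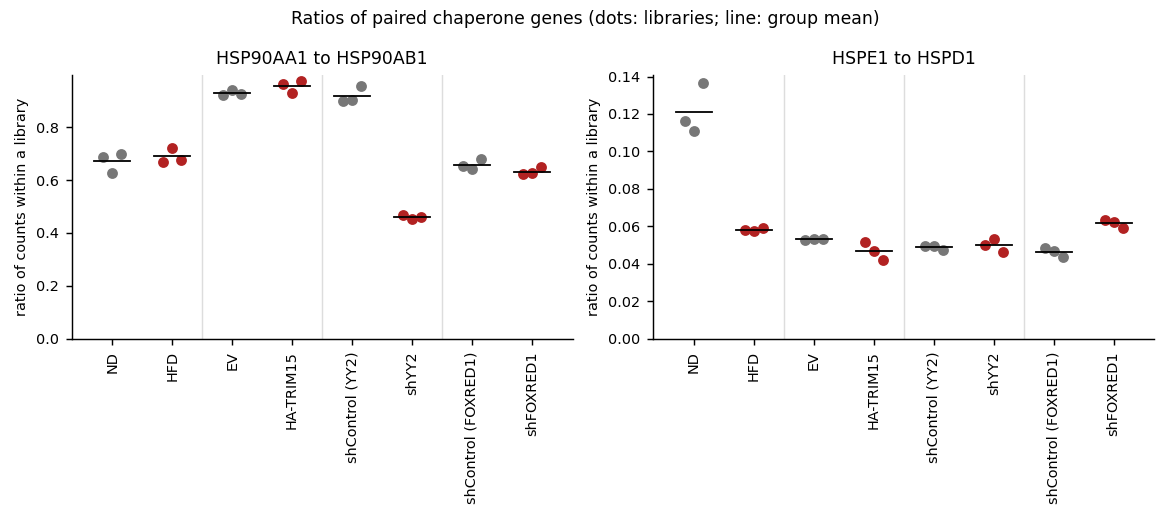
Ratio of HSP90AA1 to HSP90AB1 counts (left) and of HSPE1 to HSPD1 counts (right) in each of the 24 libraries, on linear axes from 0, with controls in grey, treated groups in red and group means as lines. The shYY2 libraries are the lowest on the left, at 0.454 to 0.467, and the ND libraries the highest on the right, at 0.111 to 0.136.

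The rows around the chaperonin pair were looked at because they could share reads. The readthrough gene HSPE1-MOB4 had at most 1 count in any library. MOB4, the gene after HSPE1, rose in HFD (log2 fold change 0.67 ± 0.05, adjusted p = 1.95e-08) and fell in shYY2 (log2 fold change -0.64 ± 0.06, adjusted p = 2.85e-08). SF3B1, on the far side of COQ10B, did not pass in HFD (log2 fold change 0.03, adjusted p = 0.578). Nor did COQ10B, PGAP1, RFTN2 or MARS2, while ANKRD44 rose there (0.41 ± 0.12, adjusted p = 0.0123). In shFOXRED1, SF3B1 (-0.21), COQ10B (-0.41) and PGAP1 (-0.36) were lower and RFTN2 (1.53) was higher. In shYY2, MARS2 (-1.78) and COQ10B (-0.21) were lower and PGAP1 (0.22) and SF3B1 (0.09) were higher. HSPD1P1, a pseudogene copy of HSPD1, had log2 fold changes of 1.16 in HFD, -0.20 with HA-TRIM15, -0.84 in shYY2 and -0.31 in shFOXRED1. These stand close to those of HSPD1, and reads of near-identical copies could be split between the rows, so the HSPD1P1 values are uncertain.

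The effects of different treatments were compared in 1 fit of all 24 libraries. The shYY2 effect differed from the shFOXRED1 effect in 9 of the 10 genes, 8 more negative and 1, HSPB1, more positive, where 55.5% of the 17980 genes tested differed. The difference was largest in HSPH1 (-1.63 ± 0.06 on the log2 scale, adjusted p = 1.18e-19), followed by BAG3 (-1.19 ± 0.06) and HSP90AA1 (-1.16 ± 0.06). HSF1 was the gene that did not pass (0.13 ± 0.07, adjusted p = 0.103). The 2 shControl groups differed in level too, as with HSP90AA1 at 427 CPM per kb in the shYY2 experiment and 203 in the shFOXRED1 experiment. The shYY2 effect also differed from the HA-TRIM15 effect in 9 genes, 7 negative and 2 positive, against 57.4% of all genes. DNAJB1 was the exception, with a difference of 0.02 ± 0.04 (adjusted p = 0.726). HSPB1 and HSF1 were the positive ones, at 1.25 ± 0.08 and 0.31 ± 0.07.

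The HFD effect was above the HA-TRIM15 effect in 8 genes and below it in none, where 28.4% of all genes differed. At an unadjusted p under 0.05 the count was the same, and with total counts 5 were above and none below. HSPD1 had the widest difference (1.18 ± 0.05, adjusted p = 4.69e-17), then HSPA8 (0.39 ± 0.04, adjusted p = 1.77e-08) and DNAJB1 (0.34 ± 0.04, adjusted p = 4.83e-07). HSPH1 passed by little (0.16 ± 0.06, adjusted p = 0.0365), and lost the call without HFD replicate 2 or 3, ND replicate 1 or 2, HA-TRIM15 replicate 1 or 3, or EV replicate 1 or 2 (adjusted p between 0.0612 and 0.102). HSPE1 (0.32 ± 0.10, adjusted p = 0.0144) lost it without ND replicate 2 or HA-TRIM15 replicate 3 (adjusted p = 0.0719 and 0.0602). The 2 tumor groups and the 2 cultures share no libraries.

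The wider chaperone network was described by 86 other genes in 7 lists. In shYY2, 53 of the 73 tested were lower and 14 higher, with a median log2 fold change of -0.52, where 38.1% of all genes were lower and 36.8% higher. TRiC, the cytosolic chaperonin, and its partner prefoldin had 11 of 13 tested genes lower and 1 higher, with CCT6A at -1.28 ± 0.03 and CCT7 at -1.25 ± 0.03. Of the HSP90 co-chaperones, 11 of 13 were lower and 2 higher, among the latter UNC45A, a myosin chaperone, at 0.50 ± 0.04. The mitochondrial list had 11 of 13 lower and 1 higher, led by the matrix HSP70 HSPA9, which fell from 576 ± 6.10 to 237 ± 0.359 CPM (SD, n = 3; log2 fold change -1.28 ± 0.03, adjusted p = 1.69e-15). In the HSP70 list 10 of 13 were lower and 2 higher, and among J-domain proteins 8 of 12 were lower and 3 higher, with DNAJB2 at 0.40 ± 0.04. Of the heat shock factors and HSF1-induced genes, 2 of 8 were lower and 4 higher, with no excess of lower genes over the share of all genes. HSPB8, the small heat shock protein that binds BAG3 and the sole tested gene of its list, was higher by 0.56 ± 0.06.

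In shFOXRED1, 31 of 73 were lower and 8 higher, with a median of -0.15, where 19.7% of all genes were lower and 16.8% higher. With total counts 22 were lower and 14 higher. TRiC and prefoldin made 10 of these 31, with no gene higher, and CCT8, CCT5 and CCT7 fell by 0.49, 0.42 and 0.44 on the log2 scale. In the HSP70 list 7 of 13 were lower and 2 higher, among the latter BAG1 (0.48 ± 0.06). The HSP90 co-chaperones had 6 of 13 lower and none higher, the mitochondrial list 4 lower and 1 higher, and the J-domain proteins 2 of 12 each way, near the share of all genes, with DNAJB2 at 0.54 ± 0.09. The collagen chaperone SERPINH1 had the smallest p-value among the higher genes (0.66 ± 0.06). Its list, heat shock factors and HSF1-induced genes, had 3 of 8 higher and 2 lower. HSPB8 was not called (0.12). Without shControl replicate 2, 5 other chaperone genes were higher.

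In HFD, 34 of 74 were higher and 14 lower, with a median of 0.10, where 25.6% of all genes were higher and 23.9% lower. With total counts 15 were higher and 27 lower. The smallest p-values among the higher genes belonged to the prefoldin subunit VBP1 (0.53 ± 0.04), the mitochondrial protease YME1L1 (0.43 ± 0.04) and the exchange factor BAG4 (0.48 ± 0.05). Among the lower ones they belonged to SERPINH1, which fell by 0.49, DNAJB2, which fell by 0.28, and DNAJC21, which fell by 0.33 on the log2 scale. By list, TRiC and prefoldin had 7 of 13 higher and 2 lower, and the HSP70 list 7 and 2. The HSP90 co-chaperones had 6 and 2 of 14, and the J-domain proteins 6 and 3 of 12. The mitochondrial list had 4 and 3 of 13, near the share of all genes. The heat shock factors and HSF1-induced genes had 4 and 1 of 8. HSPB8 was lower by 0.27.

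With HA-TRIM15, 9 of 74 were higher and 15 lower, with a median of -0.02, where 12.5% of all genes were higher and 9.53% lower, so the higher genes were about at the share of all genes. With total counts 7 were higher and 25 lower. The smallest p-values belonged to IER5, a regulator of HSF1 (0.26 ± 0.04), YME1L1 (0.21 ± 0.04) and BAG5 (0.17 ± 0.04) among the higher genes. Among the lower ones they belonged to DNAJA4 (-0.21 ± 0.04), BAG2 (-0.26 ± 0.05) and CCT5 (-0.12 ± 0.03). TRiC and prefoldin had 4 lower and none higher, the HSP90 co-chaperones 3 and none, and the mitochondrial list 4 lower and 3 higher. The HSP70 list had 1 each way and the J-domain proteins 1 lower and 2 higher. The heat shock factors and HSF1-induced genes had 2 each way, and HSPB8 was higher by 0.28. The count of lower genes was 5 without HA-TRIM15 replicate 2, 6 without EV replicate 1, 8 without EV replicate 2 and 7 without EV replicate 3. Without EV replicate 2 or 3, 5 were higher.

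**Figure D4:**
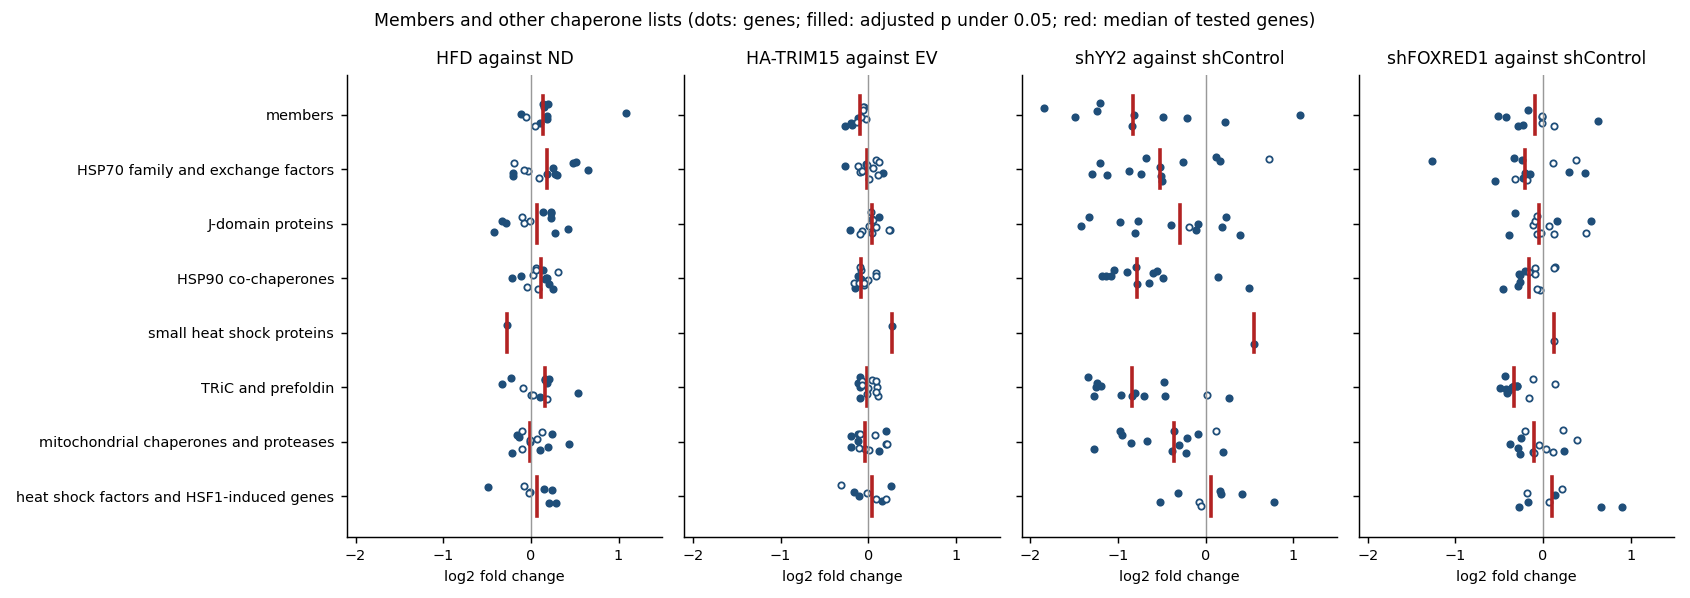
Log2 fold change of every tested gene (points) of the 10 members and of 7 lists of other chaperone genes (rows) in the 4 experiments (panels), filled where the adjusted p was under 0.05, with red bars at list medians. In shYY2 the medians of the TRiC and prefoldin list and of the members lie near each other, at -0.84 and -0.83. That of the list of heat shock factors and HSF1-induced genes, which leaves out the members, lies at 0.06.

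The stress-inducible HSP70 genes had few counts. HSPA1A and HSPA1B had at most 13 counts in every library but EV replicate 3, where they had 56 and 63 counts. They were not tested, and since they are near-identical copies, reads could be lost or split between them. PFDN6, a prefoldin subunit that cells generally use, was also at or near 0 in every group, so a value near 0 in these tables does not show that a gene was silent. HSPA6, a strictly inducible HSP70, was between 0.274 and 4.23 CPM. In shYY2 it was at 1.58, 1.92 and 2.22 CPM against 4.23, 2.78 and 3.48 CPM, all lower (log2 fold change -0.87 ± 0.19, adjusted p = 0.000725). It was 0.388, 0.649 and 0.274 CPM in shFOXRED1 against 1.21, 0.531 and 1.5 CPM, with overlap (log2 fold change -1.26 ± 0.47, adjusted p = 0.0457). HFD libraries had 2.32, 2.08 and 1.63 CPM against 1.16, 1.32 and 1.72 CPM, also overlapping (log2 fold change 0.51 ± 0.19, adjusted p = 0.0385). With HA-TRIM15 it did not pass (log2 fold change -0.11, adjusted p = 0.659).

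For each member, the gene with the most similar set of 4 log2 fold changes was found among 14519 genes tested in all experiments, by the root mean square difference. HSPH1 stood nearest to NOP56 (0.049) and MARS2 (0.053), which also lies beyond MOB4 near HSPD1, and HSP90AA1 to NCL (0.037) and NOL11 (0.051). BAG3 stood nearest to RIOX2 (0.046) and RRP1 (0.051), and HSPE1 to TBL3 (0.016) and an unnamed identifier. The nearest genes of HSPA8 were FOXC2 (0.037) and BOLA3 (0.039), those of HSP90AB1 NUP43 (0.014) and ANAPC15 (0.019), and those of DNAJB1 ZC3HAV1L (0.028) and SLC48A1 (0.031). HSF1 was nearest to NOB1 (0.015) and DPF2 (0.022), and HSPB1 to TP53I11 (0.05) and an unnamed identifier. HSPD1 had the least similar neighbours, its pseudogene HSPD1P1 (0.087) and ABCB10 (0.13). With 4 points per gene, such likeness is a description, and each set shares its libraries.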

How the data were processed

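RNA was read in 24 OE33 libraries of 8 groups. The authors deposited 4 tables of raw read counts per Ensembl identifier, without normalization, 1 table per experiment. Per the labels a directional library kit was used, while the study's methods name a nondirectional protocol, so strandedness is not settled. The submitters' processing notes name the builds hg38 and mm10 without their role. No value column was left unused. Symbols came from GENCODE 29. Counts were tested per experiment with edgeR 4.0.16 (R 4.3.3), with filterByExpr, TMM scaling and its quasi-likelihood test. Adjusted p-values are Benjamini-Hochberg values across every gene that passed the filter. A call has an adjusted p under 0.05. Differences of effects came from 1 fit of all 8 groups. Ratios were compared by exact two-sided permutation tests, adjusted over 8 tests. The statistical steps were tested on simulated data.

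The members and lists were chosen with earlier results of these data known. All 10 members are named. Of the other chaperone genes, the 3 with the smallest adjusted p in each direction and experiment are named, with HSPA1A, HSPA1B and HSPA6, and for each member the 2 genes with the most similar changes. Neighbours of HSPD1 and genes overlapping members were added for shared reads. Promoter sequences are from RefSeq (GRCh38.p14).

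Replicates of a group differed by more than sampling noise, with a chi-square per gene of 1.47 to 7.94. Deviations of libraries with the same replicate number correlated at 0.163, 0.12 and 0.338 in the shFOXRED1 experiment, all over 0.1, so a fit with the replicate block is given there. This pairing comes from these correlations and not from the labels. Of the unlike numbers, shFOXRED1 replicate 2 and shControl replicate 1 correlated at 0.168, so pairing by number is uncertain. In the other experiments at least 1 pair was under 0.1. Alternatives were other scalings, filters, DESeq2 1.42.0, the joint fit, the replicate block, other thresholds and leaving out each library.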

Additional observations from a re-analysis of the deposited data

Results flagged for a closer look

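The shYY2 effect differed from the shFOXRED1 effect in 9 members, by the test of the difference of log2 fold changes in the joint edgeR quasi-likelihood fit with Benjamini-Hochberg adjustment, where 55.5% of all genes tested differed. The difference was -0.65 for HSPA8, -1.63 for HSPH1, -0.16 for DNAJB1 (adjusted p = 0.00362) and -1.19 for BAG3. For the HSP90 genes it was -1.16 for HSP90AA1 and -0.22 for HSP90AB1. The mitochondrial pair had -0.38 for HSPD1 and -0.76 for HSPE1, and HSPB1 had 0.49. The 2 experiments have separate control libraries, whose levels differed too. HSP90AA1 was at 156 CPM per kb in shYY2 and 165 in shFOXRED1, against 427 and 203 in their shControl groups. HSPA8 was at 172 and 163 against 387 and 233, and HSPH1 at 13.9 and 24.9 against 48.8 and 28.3. What set the differences was not tested.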

How the results depend on the processing

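Of 360 member fold changes under other settings, 310 kept direction and side of the threshold, 7 changed sign, 17 gained and 26 lost the call, and all 10 shYY2 calls were kept in every leave-one-out. A minimum fold of 1.2 left 1 member higher and 0 lower in HFD, and 0 higher and 1 lower with HA-TRIM15. In shYY2 it left 1 higher and 7 lower, and in shFOXRED1 1 higher and 3 lower. Under it the other chaperone genes had 10 higher and 6 lower in HFD, and 1 and 0 with HA-TRIM15. In shYY2 they had 6 higher and 47 lower, and in shFOXRED1 5 higher and 22 lower. Total counts gave 2 members higher and 2 lower in HFD, 7 lower with HA-TRIM15, 2 higher in shFOXRED1, and 5 positive differences between HFD and HA-TRIM15. They gave 15 other chaperone genes higher and 27 lower in HFD, 25 lower with HA-TRIM15 and 14 higher in shFOXRED1. No filter, DESeq2 and the joint fit each left 0 members lower in HFD. At an unadjusted p, 7 members were lower with HA-TRIM15, with 16 other genes higher and 24 lower. Members higher in shFOXRED1 were 2 at an unadjusted p, with the strict filter, in the joint fit (13 other genes higher) and with the replicate block.

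With total counts the sign turned for HSPH1 (-0.0118) and HSPE1 (-0.0653) in HFD and for DNAJB1 (0.0432), BAG3 (0.0460) and HSPE1 (0.0487) in shFOXRED1. With the strict filter it turned for BAG3 (0.00097) and HSPE1 (0.0037) in shFOXRED1. The HSPB1 difference between HFD and HA-TRIM15 was -0.00033 with total counts, and the DNAJB1 difference between shYY2 and HA-TRIM15 was -0.0030 with no filter. The cause was not tested.

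Leaving out 1 library gave 0 to 1 members lower in HFD and 1 to 2 higher in shFOXRED1 (2 without shFOXRED1 replicate 3). Other chaperone genes were 5 to 12 higher and 5 to 22 lower with HA-TRIM15, and 5 to 12 higher in shFOXRED1. On the log2 scale the fold change ran from -0.0743 to 0.0013 for HSPB1 and from -0.0648 to 0.16 for HSPE1 in HFD. In shFOXRED1 it ran from -0.0293 to 0.0035 for DNAJB1, from -0.0354 to 0.0251 for BAG3 and from -0.0368 to 0.0081 for HSPE1. The HSF1 difference between HFD and HA-TRIM15 ran from -0.0956 to 0.0422, and the DNAJB1 difference between shYY2 and HA-TRIM15 from -0.0035 to 0.0275. The HSP90AA1 to HSP90AB1 ratio in HFD ran from -0.0103 (without ND replicate 2) to 0.0680, and the HSPE1 to HSPD1 ratio in shYY2 from -0.0169 (without shYY2 replicate 2) to 0.0824.

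The replicate block made 6 members lower with HA-TRIM15, adding HSPB1 (adjusted p = 0.0278) and HSPD1 (adjusted p = 0.0423), and left the member counts of HFD and shYY2 as they were. In shFOXRED1 it gave 12 other genes higher and 33 lower, and beyond HSF1 it changed no member call there. Genes near 0 counts, such as HSPA1A, could not be compared at this depth.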
